A study of Rattus norvegicus with 14 samples.

Results

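The genes described here encode Golgi glycosyltransferases, the enzymes that build the sugar chains of secreted and membrane proteins and of glycolipids. The rule took every gene whose single symbol in the array annotation begins with Galnt, St3gal, St6gal, St8sia, Fut, B3gnt, B3galt, B4galt or Mgat and continues with a number, or with nac and a number. That rule found 72 of the 18166 genes measured. They comprise 16 GalNAc-transferases (Galnt), 18 sialyltransferases (St3gal, St6gal, St6galnac and St8sia), 12 galactosyltransferases (B3galt and B4galt), 8 B3GNT chain-extending transferases, 11 MGAT branching transferases and 7 fucosyltransferases (Fut). Each was read by 1 transcript cluster, and all 72 matched a RefSeq gene. Genes of these families without a cluster carrying a single symbol were not read, so the classes need not hold whole families.

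The study followed the epididymis, the duct in which spermatozoa mature after they leave the testis, through postnatal development of Sprague-Dawley rats. The 4 groups were 7, 18, 28 and 60 days old, with 3, 4, 4 and 3 RNA pools made from the whole organ and 1 RatGene 2.0 ST array per pool. The sample titles call the material rat epididymal cells. The labels name no mutation and no agent for any group. The labels do not give how many animals entered a pool, so p-values measure the spread between pools, which may be partly technical. A whole-organ pool holds every cell type of the duct and its wall.

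Mucin-type O-glycans begin when a GalNAc-transferase adds N-acetylgalactosamine to a serine or threonine. Chains on proteins and lipids are then lengthened by galactosyltransferases and N-acetylglucosaminyltransferases, branched on N-glycans by the MGAT enzymes, and capped with sialic acid or fucose. In the epididymis the sugar coat of spermatozoa is remodelled during transit, and the epithelium secretes many of the glycoproteins that bind to them.

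The promoters of the 3 members with the highest fold over the whole span are shown, each from 250 bases before to 50 bases after the transcript start (RefSeq, GRCr8, 5′ to 3′ on the gene's strand). Capitals mark matches, on either strand, to 4 motifs searched by a script: the androgen receptor half-site AGAACA, the TATA box TATAAA, the CCAAT box and the GC box GGGCGG. The reverse complements were searched as well, and the 4 motifs share no letters in the 3 windows shown. Androgens drive much of the postnatal differentiation of this duct.
B3galt2 (chr13:57939474-57939773, plus strand): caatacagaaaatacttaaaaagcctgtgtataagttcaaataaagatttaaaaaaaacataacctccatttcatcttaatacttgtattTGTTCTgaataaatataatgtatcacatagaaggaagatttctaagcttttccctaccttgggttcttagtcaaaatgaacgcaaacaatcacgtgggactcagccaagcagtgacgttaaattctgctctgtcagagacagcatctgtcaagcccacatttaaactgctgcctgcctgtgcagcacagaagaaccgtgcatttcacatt
St6galnac1 (chr10:102481827-102482126, minus strand): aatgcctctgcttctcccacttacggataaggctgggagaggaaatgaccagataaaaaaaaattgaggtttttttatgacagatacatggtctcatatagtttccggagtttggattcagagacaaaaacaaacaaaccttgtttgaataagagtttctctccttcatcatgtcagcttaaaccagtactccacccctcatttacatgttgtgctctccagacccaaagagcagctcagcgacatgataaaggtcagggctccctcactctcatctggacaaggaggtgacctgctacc
St8sia6 (chr17:81792683-81792982, minus strand): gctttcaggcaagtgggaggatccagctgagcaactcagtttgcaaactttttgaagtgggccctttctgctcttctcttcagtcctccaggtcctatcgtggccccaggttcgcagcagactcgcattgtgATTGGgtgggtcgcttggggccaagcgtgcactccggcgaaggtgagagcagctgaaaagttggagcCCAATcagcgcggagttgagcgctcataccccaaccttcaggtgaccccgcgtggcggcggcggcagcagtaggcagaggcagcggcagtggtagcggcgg

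The half-site TGTTCT begins 160 bases before the start of B3galt2. St8sia6 holds ATTGG 118 bases and CCAAT 51 bases before its start, and no searched motif is in the St6galnac1 window. Of all 27457 promoters of 300 bases, 20.1% held the half-site, 14.3% the TATA box, 37.7% the CCAAT box and 34.9% the GC box. A promoter was given for 60 of the 72 members, and the shares among them were 8.33%, 6.67%, 28.3% and 53.3%. The median number of CpG dinucleotides per window was 16 in the members and 7 in all promoters. Of the 8 members that were at least 8-fold higher at day 60 than at day 7, 7 had a promoter, and 2 of these held the half-site, 0 the TATA box, 2 the CCAAT box and 3 the GC box. A match is a description of the letters and not a binding site.

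Values are log2 RMA signals, so a difference of 1 is 2-fold, and levels of different genes are not compared because each probe set has its own response. A background level of 4.92 was taken from the 95th percentile of 1343 olfactory and vomeronasal receptor genes. Array medians lay between 5.21 and 5.42, and pools of 1 age correlated across all genes at 0.989 to 0.995. Replicate 2 of day 28 stood apart, with a root mean square deviation from its age mean of 0.209 against 0.133 to 0.168 in the other 13 pools and the highest array median. Defining genes of the epididymal epithelium, such as the lipocalin gene Lcn5, were checked against the tissue label: of the 10 measured markers 5 lay above background at day 7, 9 at the middle ages and 10 at day 60. Their mean level was 4.86 to 5.07 at day 7, 7.84 to 8.22 at day 18, 9.70 to 9.89 at day 28, and reached 11.1 to 11.2 by day 60. The mean of 11 haploid germ cell markers was 4.46 to 4.69 in every pool up to day 28 and 7.09 to 7.61 at day 60. The mean of 12 leukocyte markers was 7.00 to 7.20 at day 7 and 8.01 to 8.36 at the later ages, and that of 10 fibroblast and growing matrix markers 11.3 to 11.4 at day 7 and 10.02 to 10.53 later.

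Differences between ages were tested with limma over all 18166 genes, with Benjamini-Hochberg adjustment and a threshold of 0.05. Between day 7 and day 18, 22 members rose and 17 fell, 54.2% of the 72 against 38.1% of all genes (17.4% higher and 20.7% lower). Between day 18 and day 28, 16 rose and 8 fell, 33.3% against 24.7% (10.5% and 14.3%). Between day 28 and day 60, 13 rose and 7 fell, 27.8% against 25% (13.8% and 11.2%). Over the whole span, which is the sum of these steps and not independent of them, 25 were higher and 22 lower at day 60 than at day 7, 65.3% against 49.2% (21.7% and 27.6%). The joint test of the 4 ages called 56 of the 72 members (77.8%) and 60.4% of all genes. Many genes lay under background, and 57 members and 13168 genes, receptors left out, had a mean above it. Among these the shares of members called at the 3 steps were 64.9%, 36.8% and 31.6%, against 47.8%, 31.7% and 31.3% of genes. Over the span they were 75.4% against 61.8%, and in the joint test 89.5% against 74.3%.

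The median log2 difference of the members was 0.09, 0.03, 0.01 and 0.09 in these 4 comparisons, and that of all genes 0.01, -0.02, -0.02 and -0.03. Changes of at least 2-fold without overlap between the pools were found in 11 members for day 18 against day 7 (5.88% of all genes), in 9 for day 28 against day 18 (2.16%), in 2 for day 60 against day 28 (1.94%) and in 20 over the whole span (13.3%). With each array centred on its median, 16 members rose and 3 fell from day 28 to day 60. Under that scaling the counts over all genes went from 1899 higher and 2592 lower to 1339 and 2890 for day 28 against day 18, and from 2511 and 2039 to 2793 and 1104 for day 60 against day 28. Quantile normalization of the table turned the balance over all genes the other way at that last step, to 2211 higher and 2633 lower, with 14 members higher and 9 lower. The 7 falls from day 28 to day 60 became 4 without day 60 replicate 2, and 4 without day 60 replicate 3.

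**Figure D1:**
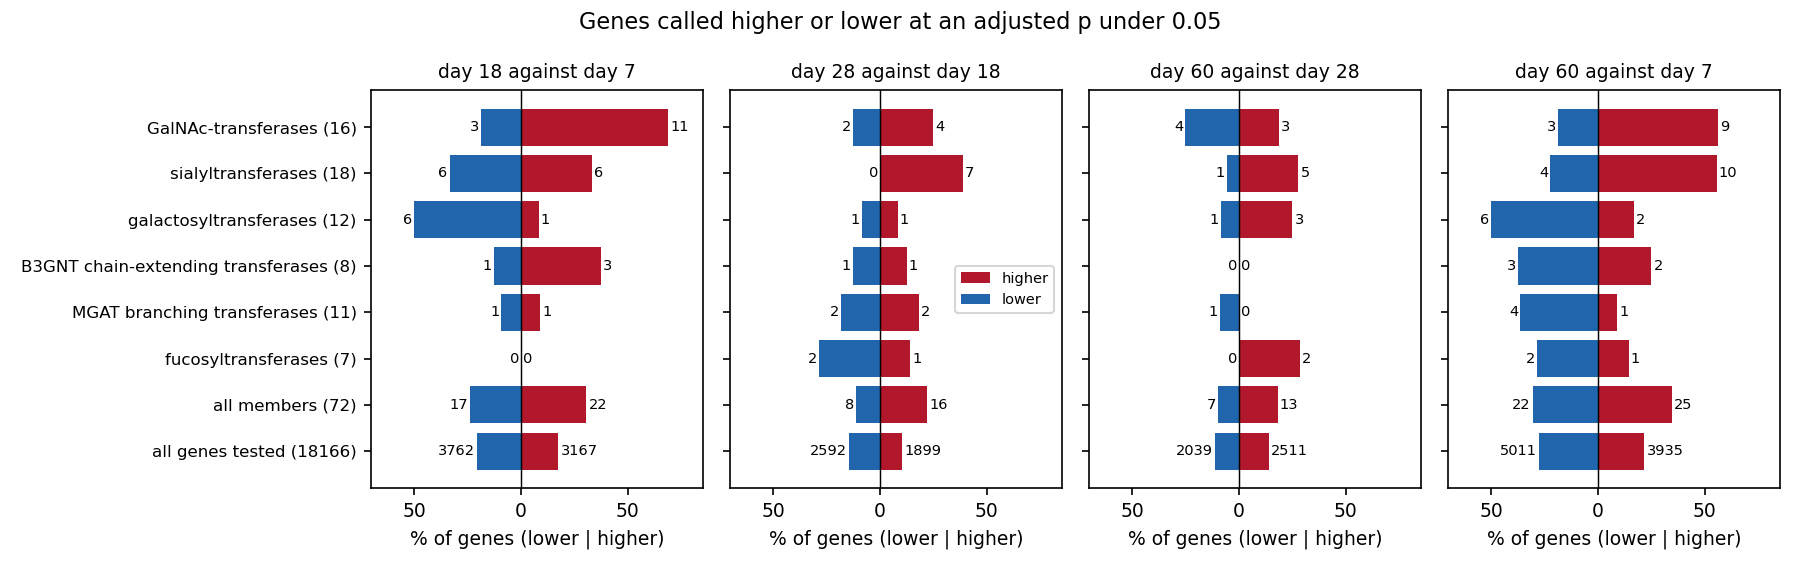
Share of genes (horizontal axis, %) called higher (red, right) or lower (blue, left) in each comparison, by enzyme class, with the number of genes beside each bar and the class size in parentheses. Among the GalNAc-transferases 11 of 16 rose and 3 fell from day 7 to day 18, and among the galactosyltransferases 6 of 12 fell and 1 rose.

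The sialyltransferases held the largest rise of the last step among the 72 members, that of St6galnac1. From day 7 to day 18, 6 of 18 rose and 6 fell (median log2 difference 0.01). From day 18 to day 28, 7 rose and 0 fell (0.24), and at an unadjusted p under 0.05 the limma test put 8 higher and 1 lower. From day 28 to day 60, 5 rose and 1 fell (0.04), and over the whole span 10 were higher and 4 lower (0.45). The share called at the 3 steps was 66.7%, 38.9% and 33.3%, against 38.1%, 24.7% and 25% of all genes. Over the span it was 77.8% against 49.2%. Without day 28 replicate 4 there was 1 fall to day 28. The fall to day 60 became 2 without day 28 replicate 1 and 0 without day 28 replicate 2 or day 60 replicate 1 or 3.

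St6galnac1 makes the sialyl-Tn structure by adding sialic acid to the first O-glycan sugar. Its signals were 3.84, 4.05 and 4.17 in the day 7 pools, 3.93, 3.52, 3.65 and 3.67 in those of day 18, 3.97, 4.08, 3.61 and 3.79 in those of day 28, and 9.85, 9.78 and 9.81 in those of day 60. The pools of the first 3 ages all lay under the background level and the 3 day 60 pools all lay far above it. The rise from day 28 was 5.95 ± 0.12 (log2 difference ± SE, adjusted p = 4.95e-13, limma), and its size is uncertain because it starts under background. Its call lower from day 7 to day 18 (-0.33 ± 0.12, adjusted p = 0.0454) lay within background, and the pools of those ages overlapped. Of the 11 germ cell markers 10 rose and 0 fell from day 28 to day 60, and of the 10 epithelial markers 5 rose and 0 fell. The part of either cell type in this result was not tested.

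St6galnac2, which sialylates core O-glycans, went up at every step. Its signals were 7.78, 7.80 and 7.73 in the day 7 pools, 8.998, 8.91, 8.95 and 8.76 in those of day 18, 9.91, 9.85, 10.07 and 9.87 in those of day 28, and 10.81, 10.84 and 10.85 in those of day 60. No pool of an age overlapped with a pool of the age before, and the 3 steps were 1.14 ± 0.077, 1.02 ± 0.071 and 0.90 ± 0.077 (adjusted p = 2.93e-08, 1.01e-07 and 1.6e-06). St6galnac1 and St6galnac2 are next to each other among the protein-coding genes of the rat genome annotation (GRCr8), as are St6galnac3 and St6galnac5. St6galnac3 went from 8.21 ± 0.11 at day 7 to 8.76 ± 0.030 at day 60 (log2 signal, mean ± SD, 3 pools each) and the difference over the span was 0.56 ± 0.086 (adjusted p = 6.27e-05). St6galnac5 went from 5.75 ± 0.24 at day 28 (4 pools) to 5.18 ± 0.26 at day 60 (3 pools), a fall of 0.58 ± 0.17 (adjusted p = 0.022). Leaving out day 28 replicate 2 raised its adjusted p to 0.0583, day 60 replicate 1 to 0.0968 and day 60 replicate 3 to 0.081, which ended the call.

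St8sia6 and St8sia5 transfer sialic acid onto another sialic acid, the first mainly on O-glycans and the second on gangliosides. St8sia6 measured 5.37, 4.77 and 5.10 in the day 7 pools, 7.04, 7.002, 7.47 and 7.14 in those of day 18, 9.19, 9.30, 9.21 and 9.15 in those of day 28, and 9.89, 9.86 and 9.83 in those of day 60. Its pools separated by age at every step, with rises of 2.09 ± 0.13, 2.05 ± 0.12 and 0.65 ± 0.13 (adjusted p = 1.19e-08, 1.62e-08 and 0.00215). The day 7 mean of St8sia6, 5.08 ± 0.30, lay close to background, and its lowest day 7 pool lay under it. The size of its first rise is therefore uncertain. St8sia5 measured 4.37, 4.12 and 5.11 in the day 7 pools, 6.28, 6.17, 6.79 and 5.93 in those of day 18, 7.85, 7.75, 7.89 and 7.78 in those of day 28, and 8.51, 8.36 and 8.31 in those of day 60. It rose by 1.76 ± 0.21 and 1.52 ± 0.19 (adjusted p = 7.54e-06 and 3.52e-05). The last step of 0.58 ± 0.21 did not pass (adjusted p = 0.054), although the pools did not overlap. The day 7 mean of St8sia5, 4.54 ± 0.51, lay under background.

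St6gal1 adds terminal sialic acid to N-glycan galactose. Its signals were 9.28, 9.04 and 9.19 in the day 7 pools, 10.08, 9.95, 10.12 and 10.01 in those of day 18, 11.19, 11.40, 11.30 and 11.35 in those of day 28, and 11.02, 11.14 and 11.10 in those of day 60. The pools rose without overlap to day 28, by 0.87 ± 0.081 and 1.27 ± 0.075, and the step to day 60 did not pass (-0.22 ± 0.081, adjusted p = 0.0579). The pools of day 60 lay under those of day 28. St6gal2, its paralog, measured 5.69, 5.88 and 5.34 in the day 7 pools, 5.004, 4.42, 4.77 and 4.62 in those of day 18, 4.39, 4.45, 4.69 and 4.50 in those of day 28, and 4.35, 4.38 and 4.51 in those of day 60. Its day 7 pools lay above all later pools, and it fell by 0.93 ± 0.14 to day 18 and by 1.22 ± 0.15 over the span (adjusted p = 8.53e-05 and 6.25e-06), with the later means under background.

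St3gal2 caps core 1 O-glycans and gangliosides. It read 8.21, 8.20 and 8.19 in the day 7 pools, 8.02, 8.16, 8.36 and 8.14 in those of day 18, 9.20, 9.07, 9.15 and 9.21 in those of day 28, and 9.75, 9.83 and 9.79 in those of day 60. Days 7 and 18 overlapped, and the rises were 0.99 ± 0.074 and 0.63 ± 0.080 (adjusted p = 2.12e-07 and 5.32e-05). St3gal4, which acts on chains that end in galactose, read 6.52, 6.77 and 6.81 in the day 7 pools, 7.97, 7.75, 7.91 and 7.61 in those of day 18, 7.79, 7.12, 7.57 and 7.72 in those of day 28, and 7.69, 7.48 and 7.64 in those of day 60. It rose from day 7 to day 18 by 1.11 ± 0.14 (adjusted p = 2.1e-05), and the pools of the 3 later ages overlapped. St3gal6, of similar specificity, went from 7.48 ± 0.13 to 8.24 ± 0.082 over that step. The means of St3gal1 at the 4 ages lay between 6.84 and 7.15 and those of St3gal3 between 8.43 and 8.79.

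Genes of polysialic acid, a long sialic acid polymer of developing neural and other tissues, were lower after day 7. St8sia2, one of its synthases, measured 6.32, 6.86 and 6.97 in the day 7 pools, 5.41, 5.59, 5.13 and 5.29 in those of day 18, 5.36, 5.24, 4.88 and 4.86 in those of day 28, and 4.97, 4.47 and 4.57 in those of day 60. The day 7 pools lay above all later ones, and the gene fell by 1.36 ± 0.18 to day 18 and by 2.04 ± 0.19 over the span (adjusted p = 2.31e-05 and 3.44e-07). St8sia4, the other synthase, went from 6.68 ± 0.076 to 6.06 ± 0.19 at day 18, a difference of -0.63 ± 0.10. St3gal5, which makes the ganglioside GM3, went from 8.16 ± 0.042 to 7.41 ± 0.18 over the same step and to 7.26 ± 0.056 at day 60. Of 8 measured nerve and Schwann cell markers 2 rose and 3 fell from day 7 to day 18 (mean level 5.52 to 5.59 and 5.42 to 5.59), and all 10 fibroblast and growing matrix markers fell. Of 8 endothelial markers 0 rose and 6 fell at that step (mean level 7.17 to 7.27 at day 7 and 6.52 to 6.64 at day 18), and of 9 smooth muscle markers 0 rose and 5 fell (mean level 9.38 to 9.75 and 8.93 to 9.20). The part of these cell types in the falls of St8sia2, St8sia4 and St3gal5 was not tested, and in whole organ RNA fewer cells of a type and less RNA per cell cannot be told apart. St8sia3 stayed under background, and St8sia1, which makes the ganglioside GD3, passed in no comparison (means 4.90 to 5.41).

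**Figure D2:**
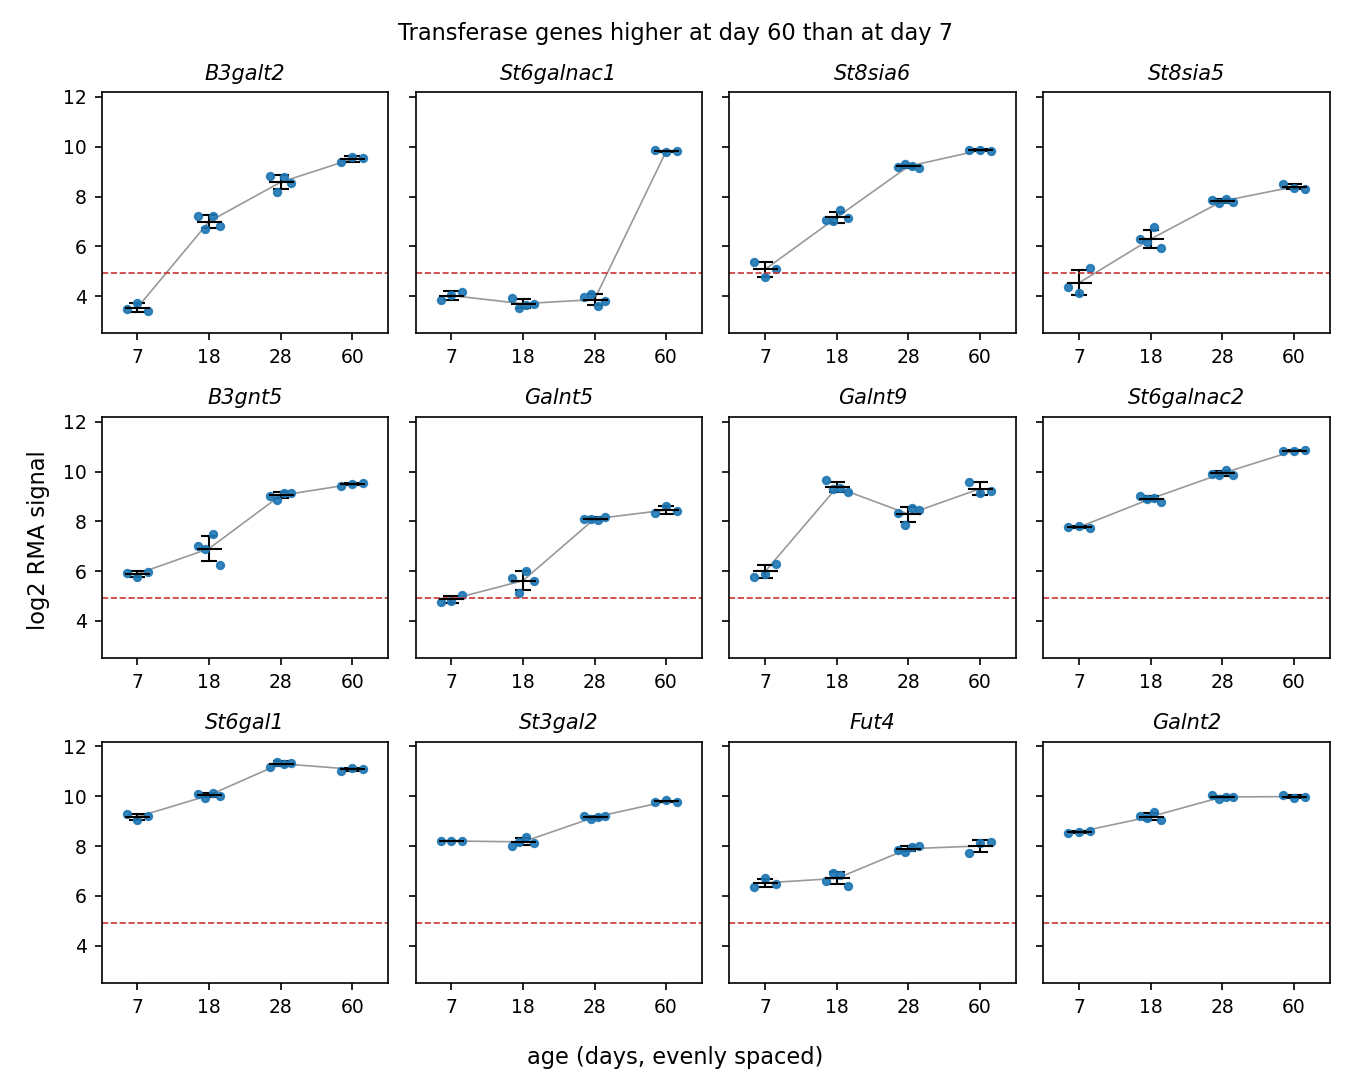
Log2 RMA signal (vertical axis) by age in days (horizontal axis, evenly spaced) for 12 genes that were higher at day 60 than at day 7; dots are pools, black bars the mean ± SD, and the dashed line the background level of 4.92. St6galnac1 stays under the line in 11 pools and reads 9.78 to 9.85 at day 60, whereas B3galt2, St8sia6 and St6galnac2 go up at every step.

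Among the galactosyltransferases 1 gene rose steeply while 5 of the 7 measured B4galt genes were called lower at day 60 than at day 7. From day 7 to day 18, 1 of 12 rose and 6 fell (median log2 difference -0.28). From day 18 to day 28, 1 rose and 1 fell (0.05), and from day 28 to day 60, 3 rose and 1 fell (0.06). Over the whole span 2 were higher and 6 lower (-0.18). The share called at the 3 steps was 58.3%, 16.7% and 33.3%, against 38.1%, 24.7% and 25% of all genes. Over the span it was 66.7% against 49.2%. The higher count over the span became 1 without day 60 replicate 2, and the rise to day 28 became 2 when any 1 of the day 60 pools was left out. The falls to day 28 and to day 60 became 2 without day 28 replicate 3 and without day 60 replicate 1, and the pools without which they were 0 are given with B4galt1 and B4galt2. The marker values given with St8sia2 stand beside the 6 early falls as well.

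B3galt2 transfers galactose to N-acetylglucosamine and so makes type 1 chains. Its signals were 3.46, 3.73 and 3.41 in the day 7 pools, 7.20, 6.71, 7.23 and 6.83 in those of day 18, 8.81, 8.17, 8.77 and 8.55 in those of day 28, and 9.38, 9.60 and 9.54 in those of day 60. All day 7 pools lay under background, and the pools of the 4 ages formed 4 separate ranges. The steps were 3.46 ± 0.16, 1.58 ± 0.15 and 0.93 ± 0.16 (adjusted p = 6.7e-10, 2.13e-06 and 0.000704), and the whole span was 5.97 ± 0.17, or 62.7-fold, a size that is uncertain because of the day 7 level. B3galt6, of the linker that ties glycosaminoglycans to proteins, went from 5.86 ± 0.034 at day 7 to 6.25 ± 0.27 at day 60 (0.38 ± 0.11, adjusted p = 0.00925), a call that ended without day 60 replicate 2 (0.0537). B3galt4, a ganglioside enzyme, had means of 5.33 to 5.78, and its fall of 0.33 ± 0.13 over the span (adjusted p = 0.0497) was called although the pools overlapped. The means of B3galt5 were 4.66 to 4.93 and those of B3galt1 4.38 to 4.69, under background.

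Most of the B4galt enzymes add galactose to N-acetylglucosamine or glucose. B4galt2 read 7.80, 7.77 and 7.65 in the day 7 pools, 6.84, 6.79, 6.95 and 6.74 in those of day 18, 6.86, 6.55, 6.80 and 6.55 in those of day 28, and 6.51, 6.07 and 6.46 in those of day 60. Its day 7 pools lay above all others, and it fell by 0.91 ± 0.11 to day 18 and by 1.39 ± 0.12 over the span (adjusted p = 1.5e-05 and 1.65e-07). Its fall of 0.35 ± 0.11 from day 28 to day 60 (adjusted p = 0.0381) ended without day 28 replicate 1 (0.0963), day 28 replicate 3 (0.0923) or day 60 replicate 2 (0.201, fall of 0.21), and with arrays centred on their medians (0.124).

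B4galt6 and B4galt5 both make lactosylceramide, the parent of most gangliosides. B4galt6 read 7.52, 7.47 and 7.41 in the day 7 pools, 6.47, 6.46, 6.597 and 6.25 in those of day 18, 6.29, 5.99, 6.42 and 6.05 in those of day 28, and 6.36, 6.66 and 6.45 in those of day 60. It fell by 1.02 ± 0.11 from day 7 to day 18 (adjusted p = 5.03e-06), and the day 7 pools lay above every later pool. B4galt5 went from 7.49 ± 0.053 to 6.82 ± 0.077 over that step (-0.67 ± 0.10). B4galt7, of the glycosaminoglycan linker, went from 7.40 ± 0.067 to 7.05 ± 0.020.

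B4galt3 had its lower levels in the middle of the course, with 10.64 ± 0.094 at day 7, 10.22 ± 0.0065 at day 18, 10.09 ± 0.065 by day 28 and 10.65 ± 0.075 by day 60. It rose by 0.56 ± 0.071 from day 28 to day 60 (adjusted p = 5.27e-05). B4galt4 went from 7.34 ± 0.17 to 7.70 ± 0.11 over that step (0.36 ± 0.11). B4galt1, the main galactosyltransferase of N-glycans, went from 8.75 ± 0.069 at day 7 to 8.52 ± 0.066 at day 18, 8.29 ± 0.12 by day 28 and 8.39 ± 0.11 by day 60. Its fall of 0.23 ± 0.078 from day 18 to day 28 (adjusted p = 0.0407) ended when 1 pool was left out, for day 7 replicate 1 (0.053), day 18 replicate 1 (0.1), 2 (0.07) or 4 (0.0942), day 28 replicate 2 (0.101) or 4 (0.101) and day 60 replicate 2 (0.051).

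**Figure D3:**
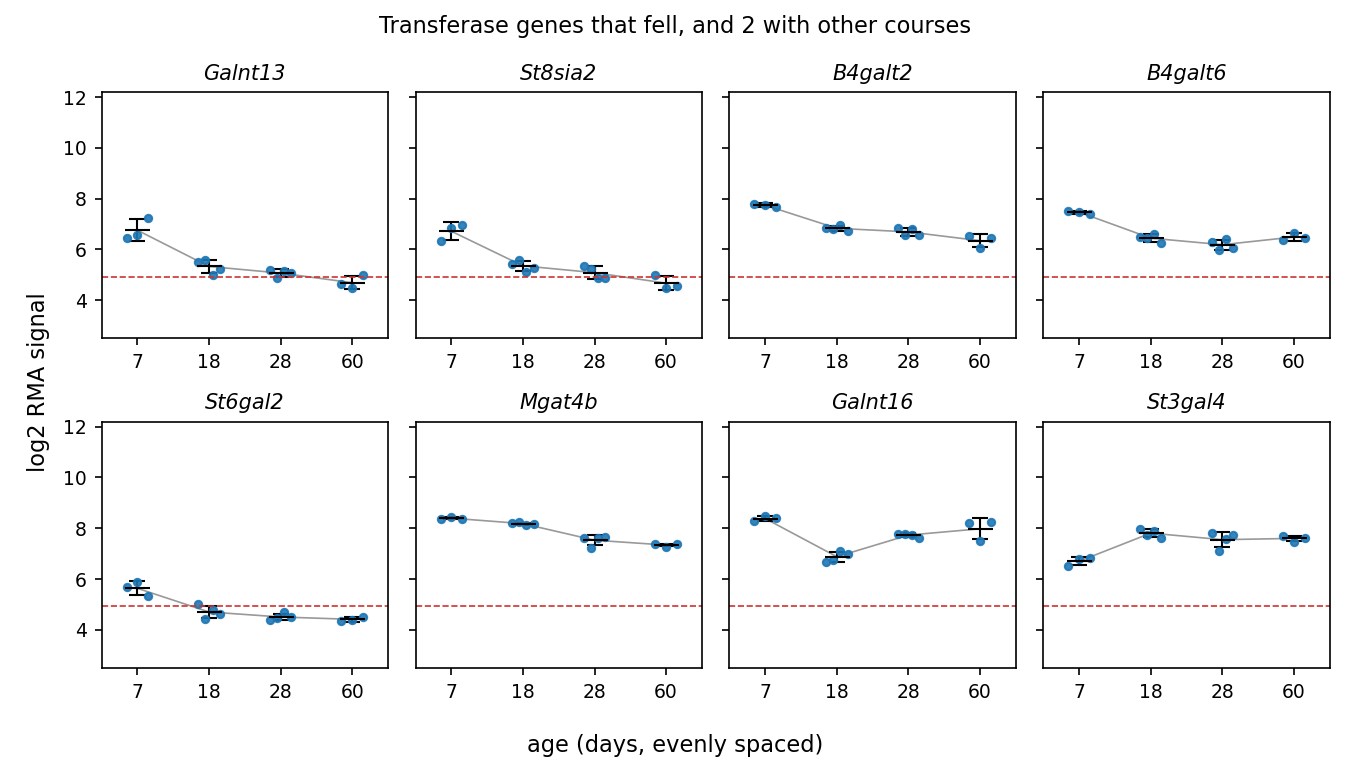
Log2 RMA signal (vertical axis) by age in days (horizontal axis, evenly spaced) for 6 genes that fell and for Galnt16 and St3gal4; dots are pools, black bars the mean ± SD, and the dashed line the background level of 4.92. In Galnt13, St8sia2, B4galt2, B4galt6 and St6gal2 the day 7 pools lie above every later pool, and the day 60 means of Galnt13, St8sia2 and St6gal2 lie under the line.

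Among the GalNAc-transferases most calls of the first step were rises. From day 7 to day 18, 11 of 16 rose and 3, Galnt13, Galnt16 and Galnt17, fell (median log2 difference 0.41), from day 18 to day 28, 4 rose and 2 fell (-0.0023), and from day 28 to day 60, 3 rose and 4 fell (0.06). Over the whole span 9 were higher and 3 lower (0.37), and 15 of the 16 differed among the ages in the joint test. The share called at the 3 steps was 87.5%, 37.5% and 43.75%, against 38.1%, 24.7% and 25% of all genes. Over the span it was 75% against 49.2%, and in the joint test 93.8% against 60.4%. The 4 falls of the last step became 2 without day 60 replicate 3 and with arrays centred on their medians.

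Galnt9 had the steepest early rise of the class. Its signals were 5.78, 5.90 and 6.28 in the day 7 pools, 9.64, 9.30, 9.32 and 9.18 in those of day 18, 8.34, 7.85, 8.51 and 8.45 in those of day 28, and 9.59, 9.12 and 9.21 in those of day 60. Day 7 lay below all later pools, the day 28 pools lay below those of day 18 and day 60, and days 18 and 60 overlapped. The steps were 3.38 ± 0.17, -1.07 ± 0.16 and 1.02 ± 0.17 (adjusted p = 1.74e-09, 0.000185 and 0.000622).

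Galnt5 took its main step later. It read 4.75, 4.81 and 5.03 in the day 7 pools, 5.74, 5.11, 6.01 and 5.58 in those of day 18, 8.09, 8.09, 8.03 and 8.17 in those of day 28, and 8.32, 8.62 and 8.41 in those of day 60. Its pools lay in 4 separate ranges, the day 7 mean lay at background, and the rise from day 18 to day 28 was 2.48 ± 0.15 (adjusted p = 1.62e-08). The last step of 0.35 ± 0.16 did not pass (adjusted p = 0.118).

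Galnt1, Galnt2 and Galnt7 rose by smaller amounts. The first 2 are broadly expressed initiating enzymes, and Galnt7 prefers peptides that already carry a sugar. Galnt1 measured 8.35, 8.47 and 8.17 in the day 7 pools, 8.50, 8.53, 8.44 and 8.44 in those of day 18, 9.03, 8.78, 9.04 and 9.22 in those of day 28, and 9.70, 9.85 and 9.44 in those of day 60. Days 7 and 18 overlapped, and the later rises were 0.54 ± 0.11 and 0.64 ± 0.11 (adjusted p = 0.00172 and 0.000857). Galnt2 measured 8.52, 8.57 and 8.61 in the day 7 pools, 9.21, 9.12, 9.36 and 9.05 in those of day 18, 10.03, 9.89, 9.98 and 9.98 in those of day 28, and 10.06, 9.93 and 9.97 in those of day 60. It rose by 0.61 ± 0.080 and 0.79 ± 0.074, and days 28 and 60 overlapped. Galnt7 measured 7.35, 7.27 and 7.50 in the day 7 pools, 8.02, 8.11, 7.92 and 7.93 in those of day 18, 8.09, 7.86, 7.90 and 7.98 in those of day 28, and 8.28, 8.46 and 8.45 in those of day 60. It rose by 0.62 ± 0.087 to day 18 and by 0.44 ± 0.087 from day 28 to day 60, with overlapping pools in between, and by 1.02 ± 0.093 over the span (adjusted p = 2.7e-07).

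Galnt13, known mainly from the nervous system, fell. It read 6.47, 6.55 and 7.25 in the day 7 pools, 5.52, 5.57, 5.01 and 5.22 in those of day 18, 5.18, 4.86, 5.15 and 5.08 in those of day 28, and 4.62, 4.47 and 4.98 in those of day 60. The day 7 pools lay above all later ones and the day 60 mean lay under background. The fall to day 18 was 1.43 ± 0.19 and that over the span 2.07 ± 0.20 (adjusted p = 2.4e-05 and 5.41e-07). The marker values given with St8sia2 apply here too.

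Galnt16 fell and then rose. It read 8.28, 8.47 and 8.39 in the day 7 pools, 6.68, 6.76, 7.10 and 6.97 in those of day 18, 7.77, 7.78, 7.73 and 7.63 in those of day 28, and 8.20, 7.51 and 8.23 in those of day 60. The fall to day 18 was 1.502 ± 0.15 and the rise to day 28 was 0.85 ± 0.14 (adjusted p = 1.64e-06 and 0.000396). Day 60 replicate 2 lay below every day 28 pool and the other day 60 pools lay above them, and the span of -0.40 ± 0.16 did not pass (adjusted p = 0.052). Galnt18 took the opposite course, from 7.36 ± 0.055 at day 7 to 8.31 ± 0.089 at day 18, 7.49 ± 0.14 by day 28 and 7.01 ± 0.13 by day 60. Its 3 steps were 0.95 ± 0.091, -0.82 ± 0.084 and -0.47 ± 0.091 (adjusted p = 9.55e-07, 4.87e-06 and 0.00153). Galnt14 went from 5.84 ± 0.26 at day 28 to 5.10 ± 0.29 at day 60, a fall of 0.74 ± 0.18 (adjusted p = 0.00716), and Galnt17 fell by 0.51 ± 0.11 over the span (adjusted p = 0.000932).

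In the other GalNAc-transferases every difference stayed under 2-fold. Galnt12 went from 7.77 ± 0.23 at day 7 to 8.71 ± 0.16 at day 60 (0.94 ± 0.12). The means of Galnt3, which protects the hormone FGF23 from cleavage, lay between 6.27 and 6.55. Those of Galnt4 lay between 6.79 and 7.28, of Galnt6 between 5.20 and 5.66, of Galnt10 between 7.97 and 8.39 and of Galnt11 between 7.91 and 8.18.

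Most of the B3GNT enzymes add N-acetylglucosamine to galactose and so extend chains. From day 7 to day 18, 3 of 8 rose and 1 fell (median log2 difference 0.20), from day 18 to day 28, 1 rose and 1 fell (0.05), and from day 28 to day 60 none of the 8 was called in limma's test (-0.07). At an unadjusted p under 0.05 that step held 1 higher and 1 lower. Over the span 2 were higher and 3 lower (0.17). The share called at the 3 steps was 50%, 25% and 0%, against 38.1%, 24.7% and 25% of all genes. Over the span it was 62.5% against 49.2%. The 3 early rises became 1 without day 7 replicate 1 or 2, without day 18 replicate 1 or 2, and with arrays centred on their medians. The 2 higher over the span became 1 without day 7 replicate 1 or 2 or day 60 replicate 1 or 2, and 1 gene rose to day 60 without day 18 replicate 3 or 4.

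B3gnt5 starts the lacto-series of glycolipids on lactosylceramide. It read 5.92, 5.76 and 5.97 in the day 7 pools, 7.01, 6.87, 7.49 and 6.25 in those of day 18, 9.04, 8.87, 9.12 and 9.13 in those of day 28, and 9.43, 9.51 and 9.53 in those of day 60. The pools of the 4 ages lay in 4 separate ranges. The rises were 1.02 ± 0.20 and 2.14 ± 0.18 (adjusted p = 0.000746 and 7.77e-07), and the last step of 0.45 ± 0.20 did not pass (adjusted p = 0.112). Day 18 was the age with the widest spread, an SD of 0.51 against 0.053 to 0.12 at the others.

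B3gnt7, which extends keratan sulfate, went from 7.44 ± 0.032 at day 18 to 6.57 ± 0.22 at day 28, a fall of 0.87 ± 0.096 (adjusted p = 1.03e-05). B3gnt9 went from 7.28 ± 0.083 at day 7 to 6.57 ± 0.11 at day 18 and 6.35 ± 0.064 at day 60, falls of 0.71 ± 0.097 and, over the span, 0.93 ± 0.10 (adjusted p = 3.42e-05 and 2.46e-06). B3gnt8 fell over the span by 0.49 ± 0.12 (adjusted p = 0.0039) to 4.90 ± 0.21, at background. B3gnt2, which makes polylactosamine chains, went from 6.36 ± 0.089 at day 7 to 6.70 ± 0.19 at day 18 and 6.68 ± 0.11 at day 60 (0.33 ± 0.10 and 0.31 ± 0.11, adjusted p = 0.0216 and 0.0322). The first call of B3gnt2 ended without day 7 replicate 1 (0.091) or 2 (0.0552) or day 18 replicate 1 (0.0618) or 2 (0.0655), and the second without day 7 replicate 1 (0.112) or 2 (0.0668) or day 60 replicate 1 (0.0844) or 2 (0.108). B3gnt3 and B3gnt4 had means of 5.25 to 5.52 and 4.58 to 5.05 and passed in no comparison, and B3gnt6 stayed under background.

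The MGAT enzymes start and branch complex N-glycans, and the 2 called falls from day 18 to day 28 were in branching enzymes. Of the 11 genes 6 lay under background at every age: Mgat3, which adds the bisecting sugar, with Mgat4a, Mgat4c, Mgat4d, Mgat4e and Mgat4e-like, with means of 2.84 to 4.84. From day 7 to day 18, 1 gene rose and 1 fell (median log2 difference 0.06), from day 18 to day 28, 2 rose and 2 fell (-0.08), and from day 28 to day 60, 0 rose and 1 fell (-0.11). At an unadjusted p under 0.05 limma put 1 higher and 2 lower at that last step. Over the span 1 was higher and 4 were lower (0.03). The share called at the 3 steps was 18.2%, 36.4% and 9.09%, against 38.1%, 24.7% and 25% of all genes. Over the span it was 45.5% against 49.2%. At the second step 18.2% of the class was called lower, against 14.3% of all genes. The 2 rises to day 28 were Mgat3 and Mgat4e-like, both under background, and became 0 without day 18 replicate 1 or 3 or day 28 replicate 2 and 1 without day 18 replicate 2 or day 28 replicate 4. The rise to day 18 became 0 without day 7 replicate 3 and 2 without day 60 replicate 2 or 3, and the fall became 0 without day 7 replicate 2 and 2 without day 28 replicate 2. The fall to day 60 became 0 without day 60 replicate 2 and 2 without day 28 replicate 4.

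Mgat4b, which adds a branch to the first arm of the N-glycan core, measured 8.38, 8.45 and 8.36 in the day 7 pools, 8.20, 8.23, 8.12 and 8.18 in those of day 18, 7.61, 7.23, 7.64 and 7.65 in those of day 28, and 7.36, 7.28 and 7.38 in those of day 60. Days 7 and 18 lay above days 28 and 60, and the gene fell by 0.65 ± 0.088 from day 18 to day 28 and by 1.06 ± 0.10 over the span (adjusted p = 7.15e-05 and 4.53e-07). Mgat5, which makes the branch that carries long polylactosamine chains, went from 7.57 ± 0.0085 at day 7 to 7.34 ± 0.14 at day 18, 6.71 ± 0.26 by day 28 and 6.66 ± 0.089 by day 60. It fell by 0.63 ± 0.11 from day 18 to day 28 and by 0.91 ± 0.13 over the span (adjusted p = 0.000717 and 2.59e-05). Mgat1, which opens the way to hybrid and complex N-glycans, went from 7.30 ± 0.089 to 6.90 ± 0.21 over the span, a fall of 0.39 ± 0.12 (adjusted p = 0.0102).

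Mgat2, the next enzyme of complex N-glycan synthesis, rose from 7.20 ± 0.10 at day 7 to 7.49 ± 0.067 at day 18 (0.29 ± 0.082, adjusted p = 0.0125). That call ended without day 7 replicate 3 (adjusted p = 0.0638) and with arrays centred on their medians (0.0939). The means of Mgat5b lay between 5.06 and 5.45, with no call.

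Among the genes under background, Mgat4e-like measured 2.92, 2.66 and 2.93 in the day 7 pools, 3.25, 3.23, 3.19 and 3.47 in those of day 18, 3.68, 3.84, 3.69 and 4.18 in those of day 28, and 3.84, 3.48 and 4.48 in those of day 60. The whole span of 1.09 ± 0.20 was called (adjusted p = 0.0003) although every pool lay under background, so its size is uncertain. Its call from day 18 to day 28 (0.56 ± 0.17, adjusted p = 0.0272) ended without day 18 replicate 1 (0.0594), 2 (0.0617) or 3 (0.0627) or day 28 replicate 2 (0.0544) or 4 (0.0816). Mgat3 differed by -0.37 ± 0.10, 0.32 ± 0.095 and -0.33 ± 0.10 at the 3 steps (adjusted p = 0.00977, 0.0234 and 0.0277), also under background. The first of these ended without day 7 replicate 2 (0.0523). The second ended without day 18 replicate 1 (0.0516) or 3 (0.0694) or day 28 replicate 2 (0.0668). The third ended without day 28 replicate 2 (0.0643) or day 60 replicate 2 (0.0504) or 3 (0.147).

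The fucosyltransferases had no call before day 18 and 5 calls over the later steps. The share called at the 3 steps was 0%, 42.9% and 28.6%, against 38.1%, 24.7% and 25% of all genes. Over the span it was 42.9% against 49.2%. From day 7 to day 18, 0 of 7 rose and 0 fell in limma's test (median log2 difference 0.07), and none had an unadjusted p under 0.05 either. From day 18 to day 28, 1 rose and 2 fell (-0.05), and from day 28 to day 60, 2 rose and 0 fell (0.11), with 2 higher and 0 lower at an unadjusted p under 0.05. Over the span 1 was higher and 2 were lower (-0.06). The 2 rises to day 60 became 1 without day 28 replicate 3 or day 60 replicate 1 or 3, and the 1 over the span became 2 without day 28 replicate 2 or 4 or day 60 replicate 2.

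Fut4, which makes the Lewis x type of fucosylated chain, measured 6.37, 6.71 and 6.48 in the day 7 pools, 6.61, 6.94, 6.85 and 6.40 in those of day 18, 7.84, 7.77, 7.96 and 7.997 in those of day 28, and 7.71, 8.13 and 8.17 in those of day 60. Days 7 and 18 overlapped, as did days 28 and 60, and the step between them was 1.19 ± 0.13 (adjusted p = 9.52e-06). Fut8, which adds the core fucose of N-glycans, went from 8.35 ± 0.13 at day 28 to 8.71 ± 0.056 at day 60 (0.36 ± 0.078, adjusted p = 0.00326). Fut11 went from 8.09 ± 0.058 at day 18 to 7.75 ± 0.042 at day 28, a fall of 0.34 ± 0.070 (adjusted p = 0.00241).

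Fut2, which makes the H antigen in secretory epithelia, went from 4.60 ± 0.18 at day 28 to 5.04 ± 0.25 at day 60 (0.43 ± 0.12, adjusted p = 0.0177), with overlapping pools and levels at background. That call ended without day 28 replicate 3 (0.0527), day 60 replicate 1 (0.0845) or day 60 replicate 3 (0.0837). Fut9 was called lower from day 18 to day 28 (-0.87 ± 0.11, adjusted p = 4.8e-05), with means of 2.96 to 3.84 that all lay under background. Fut1, the other H antigen enzyme, stayed under background as well (means 4.25 to 4.50), and the means of Fut7, a fucosyltransferase of leukocytes, were 5.26 to 5.42.

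**Figure D4:**
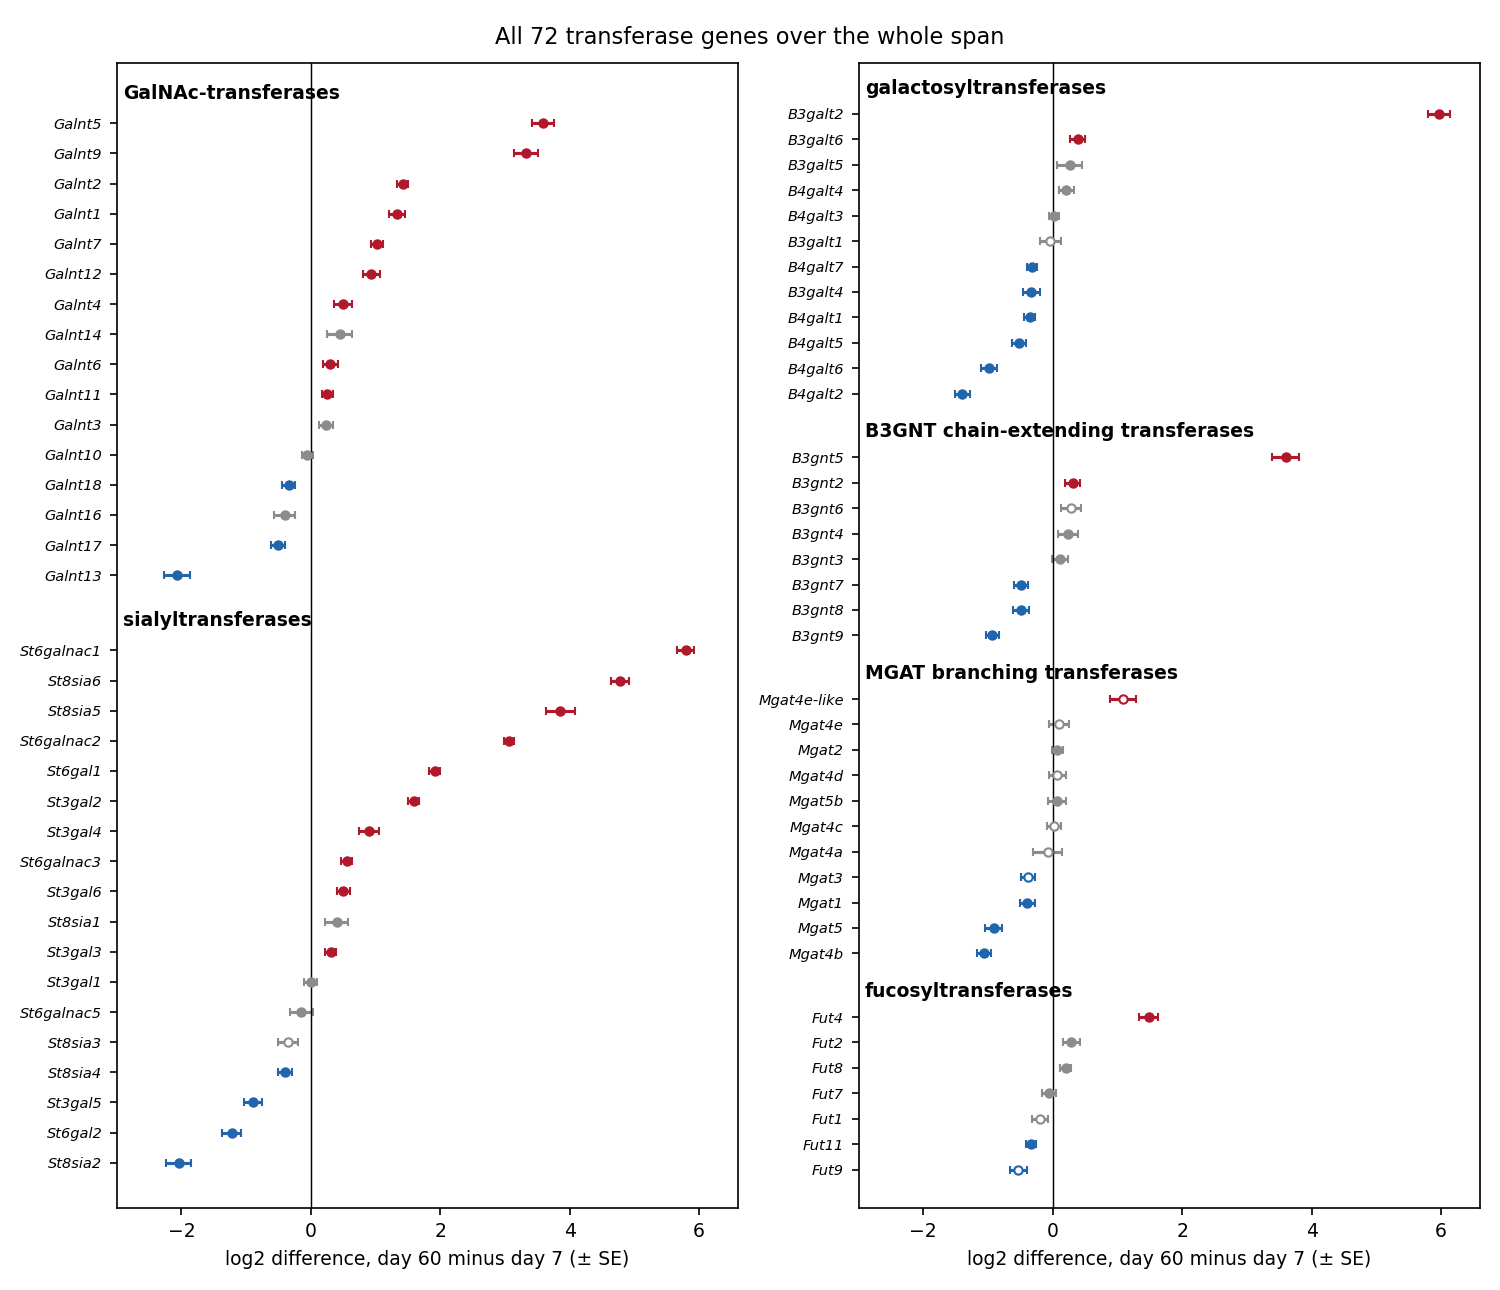
Log2 difference of day 60 minus day 7 with its SE (horizontal axis) for all 72 genes, grouped by enzyme class and sorted within it; red points were called higher, blue points lower and grey points neither, and open points lay under background at every age. B3galt2 (5.97) and St6galnac1 (5.79) lie at the right end, and Galnt13 (-2.07) and St8sia2 (-2.04) at the left end.

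Genes that supply or surround these enzymes were read from 7 lists. Of 22 measured genes of sugar nucleotide synthesis, 8 rose and 4 fell from day 7 to day 18, 5 rose and 0 fell to day 28, 4 rose and 0 fell to day 60, and 15 were higher and 2 lower over the span (median log2 difference 0.41, against -0.03 for all genes). Cmas, which activates sialic acid to CMP-sialic acid, rose by 1.30 ± 0.12 over the span and Gnpnat1, of UDP-N-acetylglucosamine synthesis, by 1.01 ± 0.11. Nanp, the phosphatase before Cmas in the sialic acid pathway, and Galt, of galactose metabolism, fell by 0.48 ± 0.12 and 0.40 ± 0.094. Of 18 genes listed as nucleotide sugar transporters, the SLC35 family and the Golgi ion transporter gene Tmem165, 5 rose and 1 fell, 5 rose and 2 fell, 7 rose and 3 fell at the 3 steps, and 9 were higher and 3 lower over the span (median 0.27). Slc35b1, an ATP/ADP exchanger of the endoplasmic reticulum, and Slc35e2b rose by 1.30 ± 0.093 and 1.23 ± 0.082, and Slc35e3 and Slc35b2, a carrier of the sulfate donor PAPS, fell by 0.59 ± 0.094 and 0.53 ± 0.10. The shares called at the 3 steps and over the span were 54.5%, 22.7%, 18.2% and 77.3% for sugar nucleotide synthesis. For the transporters they were 33.3%, 38.9%, 55.6% and 66.7%, against 38.1%, 24.7%, 25% and 49.2% of all genes.

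Of 22 measured genes listed as O-glycan core enzymes and other transferases, 5 rose and 6 fell, 2 rose and 1 fell, and 7 rose and 3 fell at the 3 steps, and 7 were higher and 5 lower over the span (median 0.12). B4galnt3, which builds LacdiNAc, and B4galnt1, of the complex gangliosides, rose by 2.05 ± 0.096 and 1.49 ± 0.13. Pofut2 and Pofut1, which add fucose directly to protein repeats in the endoplasmic reticulum and not in the Golgi, fell by 1.17 ± 0.11 and 0.90 ± 0.11. Of 8 genes that trim N-glycans in the Golgi, 2 rose and 3 fell, 1 rose and 1 fell, and 1 rose and 1 fell, with 2 higher and 3 lower over the span (median -0.19). The mannosidases Man1a1 and Man1a2 rose by 0.75 ± 0.079 and 0.22 ± 0.083, and Man1c1 and Manea fell by 0.95 ± 0.094 and 0.67 ± 0.082. The shares called at the 3 steps and over the span were 50%, 13.6%, 45.5% and 54.5% for the O-glycan core list. For the trimming list they were 62.5%, 25%, 25% and 62.5%, against 38.1%, 24.7%, 25% and 49.2% of all genes.

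Of 11 measured subunits of the oligosaccharyltransferase, which puts the N-glycan precursor on proteins, 4 rose and 2 fell, 6 rose and 0 fell, and 3 rose and 0 fell, with 8 higher and 0 lower over the span (median 0.51). Rpn2 and Ostc rose by 0.85 ± 0.071 and 0.76 ± 0.11. Of 31 measured genes of Golgi structure, 10 rose and 3 fell, 10 rose and 1 fell, and 8 rose and 0 fell, with 16 higher and 2 lower over the span (median 0.30). Golm1, a Golgi membrane protein, and Uso1, a vesicle tether, rose by 1.55 ± 0.085 and 1.35 ± 0.079, while the secretory pathway regulator Creb3l1 and Cog5, of the conserved oligomeric Golgi complex, fell by 1.18 ± 0.11 and 0.28 ± 0.088. The shares called at the 3 steps and over the span were 54.5%, 54.5%, 27.3% and 72.7% for the oligosaccharyltransferase. For Golgi structure they were 41.9%, 35.5%, 25.8% and 58.1%, against 38.1%, 24.7%, 25% and 49.2% of all genes.

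Of 15 measured sialidases and lysosomal enzymes that remove sugars, 7 rose and 1 fell, 5 rose and 1 fell, and 5 rose and 0 fell, with 8 higher and 1 lower over the span (median 0.34). Manba, the lysosomal beta-mannosidase, and Glb1, the lysosomal beta-galactosidase, rose by 2.90 ± 0.11 and 2.49 ± 0.085, and Glb1l fell by 0.29 ± 0.076. The shares of this list called at the 3 steps and over the span were 53.3%, 40%, 33.3% and 60%. Those of all genes were 38.1%, 24.7%, 25% and 49.2%. The mean level of the 10 epithelial markers rose over the same ages, and its part in these counts was not tested.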

How the data were processed

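The submitters' processing notes list RMA and the Transcriptome Analysis Console, and the deposited values run as log2 signals do. RMA as usually run corrects background, quantile-normalizes probes and summarises them per cluster, so changes are relative to the other genes. Versions, settings and annotation version are not given in the sources used here. The table holds 36685 transcript clusters on 14 arrays. Symbols came from the platform annotation: 18511 clusters had 1 symbol, 575 several and 17599 were not listed. The cluster with the highest mean over the 14 arrays stood for a gene, with no filter on level, which gave 18166 genes.

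One mean per age was fitted to all 14 pools with limma 3.58.1 (lmFit, contrasts.fit, eBayes) in R 4.3.3. The 4 differences and the F test were two-sided, with Benjamini-Hochberg adjustment across the 18166 genes (threshold 0.05). The scripts were tested on simulated data. The members and all lists were chosen with earlier results of these data known. Values in every pool are given for members with an adjusted p under 0.05, a 2-fold difference and no overlap of pools, and values also for the 2 largest called rises and falls per class and comparison, all under-background members, and the 2 largest rises and falls per pathway list over the whole span. Alternatives were another normalization or centring, level and cluster choices, trend, weights, block, subsets of ages and leaving out each pool. The number of arrays limits precision.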

Additional observations from a re-analysis of the deposited data

Results flagged for a closer look

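Within each age of 4 pools the highest and the lowest pool were set against the others for every member, and in 6 of 144 such groups 1 pool lay apart by Dixon's ratio test at the 95% level. Chance alone gives about 1 in 20. Replicate 2 of day 28 was the pool in 4 of the 6. Its Mgat4b signal was 7.23 against 7.61 to 7.65 in the other day 28 pools. Its Mgat2 signal was 7.23 against 7.44 to 7.47. Galnt11 read 7.91 in it against 8.09 to 8.13, and Mgat3 read 4.997 against 4.71 to 4.74. Replicate 4 of day 18 was the pool in the other 2, with Galnt14 at 5.69 against 5.48 to 5.51 and St3gal5 at 7.14 against 7.48 to 7.52. Without replicate 2 of day 28, 22 members rose and 18 fell from day 7 to day 18, 14 rose and 7 fell from day 18 to day 28, and 11 rose and 6 fell from day 28 to day 60.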

How the results depend on the processing

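Leaving out 1 pool at a time gave 18 to 24 members higher and 12 to 18 lower for day 18 against day 7, 14 to 17 and 7 to 9 for day 28 against day 18, 10 to 15 and 4 to 7 for day 60 against day 28, 22 to 26 and 20 to 24 over the whole span, and 51 to 57 in the joint test. Of these counts the 7 members lower at day 60 than at day 28 moved by more than 1.5 times: to 3 with arrays centred on their medians, to 4 with the pools of the 2 ages alone, and to 4 without day 60 replicate 2 or without replicate 3. The cause was not tested. Counts within a class are small, and the pools that moved them by more than 1.5 times are given with each class. Among the 42 members at or above the median level, 2 sialyltransferases fell to day 18 in place of 6, and 1 in place of 4 over the span, with fewer genes tested. Under the other settings the counts were 17 to 23 and 13 to 18, 14 to 17 and 7 to 9, 11 to 16 and 3 to 9, 22 to 28 and 15 to 23, and 42 to 59. The lower ends of 15 and 42 come from the 42 members at or above the median level.

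Of 79 named differences 67 kept their direction and their side of the threshold in every alternative run that included the gene. All 79 had been picked from differences already called, and the refits used the same pools, which favours keeping the call. The run on genes at or above the median level held 42 of the 72 members. Named members below that level were not refitted in it. Of 1797 refits 58 lost the call, 38 of them among the 1106 with 1 pool left out, and 0 turned the direction. Each member had 1 cluster, so the cluster settings could change no estimate. Leaving out a pool of another age, the intensity trend and the pools of the 2 ages alone also kept the estimates. In those refits only the p-value could change, so the direction could not turn. The other 20 lost calls were as follows, with the adjusted p. Centring ended the calls of B3gnt2 to day 18 (0.0865) and over the span (0.0994), Mgat2 to day 18 (0.0939), Mgat3 to day 28 (0.058) and to day 60 (0.0798) and B4galt2 to day 60 (0.124). Testing every cluster ended B3gnt2 over the span (0.0648), Mgat3 at those steps (0.0509 and 0.0556), Mgat4e-like (0.0602) and B4galt1 (0.0787) to day 28, and B4galt2 to day 60 (0.0734). The pools of the 2 ages alone ended Mgat3 (0.0705), B4galt2 (0.103) and Fut2 (0.0586) to day 60 and B4galt1 to day 28 (0.0766). An intensity trend ended Mgat3 at both steps (0.0601 and 0.0695), and array weights ended B4galt1 to day 28 (0.0564). Pools that share a replicate number did not deviate together: over 19 pairs the correlation ranged from -0.143 to 0.0456, and 0 pairs passed 0.1. With the replicate block 21 members were higher and 13 lower for day 18 against day 7, 16 and 7 for day 28 against day 18, 12 and 8 for day 60 against day 28, and 27 and 21 over the span, and B4galt1 at day 28 against day 18 lost its call (0.0546).

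Signals at or under background carry no size: 11 members stayed there at all ages.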
